A study of Homo sapiens with 192 samples.

Results

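The claudins described here are 9 genes of the family, CLDN1, CLDN2, CLDN3, CLDN4, CLDN7, CLDN12, CLDN15, CLDN18 and CLDN23. They were taken from a list of gene names, matched to the count tables by their Ensembl identifiers, and make up 9 of the 58243 genes in the count tables. This list and the other gene lists below were chosen with earlier results of these data known. The shares of each list that passed a test are therefore a description only. All 9 members were found in the count tables, and the other 15 claudin genes were used for comparison. Claudins are tetraspan membrane proteins that polymerise into the strands of the tight junction, the seal between neighbouring epithelial cells. Members of the family either tighten that seal or form pores through it, so that the mix of claudins in a cell sets which ions and how much water pass between cells. In the colon the sealing members CLDN1, CLDN3, CLDN4 and CLDN7 line the crypt and surface epithelium, and the pore former CLDN2 is known from crypts and from inflamed or transformed epithelium.

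The study examined what extracellular ATP and adenosine do to colorectal cancer (CRC) cells, and whether 3D growth affects the expression of purinergic signaling genes. For sequencing it used the established human lines LS513, LS174T, HT29 and HCT116, all 4 of them kept as 2D cultures and in 3D, with no further treatment. RNA-seq counts came from 24 libraries, 3 for each line and growth condition. HT29 and LS513 are described as microsatellite stable, and HCT116 and LS174T as microsatellite instable. The study's methods give McCoy medium for HCT116 and DMEM for the other lines. Differences between HCT116 and the other lines therefore cannot be told apart from those of medium. The labels do not say whether the replicates came from separate cultures, so the p-values below measure the spread between these libraries, and how the 3D cultures for sequencing were made is not given in the sources used here.

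Total counts ran from 18723942 to 34277421 per library, with a median of 30777613. Each library differed from the others of its group by a root mean square of 0.149 to 0.318 log2 units across tested genes, apart from replicate 2 of LS174T in 3D, which stood at 0.404. The claudin changes in LS174T and the counts of other gene lists in that line are given below with and without that library. The epithelial keratin genes KRT8 and KRT18 and EPCAM were high in every library, with at least 35913, 21951 and 8005 counts. KRT19 and CDH1 had at least 7469 and 494 counts. The other epithelial markers fell further in the libraries where each was lowest. CDX2, KRT20, GPA33, VIL1 and LGALS4 fell to 28, 20, 6, 4 and 3 counts, and CDX1 and CEACAM5 to 0. Of the defining markers of other cell types, PTPRC had at most 2 counts, CD3E and COL1A2 had 0 and COL3A1 and DCN had at most 2, and VWF had 0 to 22 and PECAM1 0 to 76. Higher counts in some libraries were found for COL1A1 with 1 to 655 counts (up to 21.8 CPM), CD14 with 0 to 501 (up to 15.1 CPM) and ACTA2 with 2 to 250 (up to 8.75 CPM). The summed level of 11 markers of other cell types was 0.302 to 29.9 CPM, the counts scaled to a common library total, against 3575 to 18472 CPM for the 12 epithelial markers.

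Of the 9 claudin genes, 8 had enough counts to be tested. In HT29, 6 of the 8 differed between 3D and 2D at an adjusted p under 0.05, 5 higher and 1 lower, where 40.7% of all 19387 tested genes did, 21.1% higher and 19.6% lower. LS513 gave 5 of 8, with 4 higher and 1 lower, against 23.6% of all genes (13.7% higher and 9.9% lower). HCT116 gave 4 of 8, all higher, against 29.1% of all genes (16.8% higher and 12.3% lower). LS174T gave 5 of 8, with 3 higher and 2 lower, against 22.2% (13.1% higher and 9.15% lower). Without replicate 2 of LS174T in 3D, LS174T again gave 5 of 8, against 10.5% of all genes tested in that fit. The median log2 fold change of the 8 tested claudins was 0.62, 0.58, 0.29 and 0.33 in HT29, LS513, HCT116 and LS174T, beside medians of 0, 0, 0.011 and 0.016 over all tested genes. CLDN3, CLDN4 and CLDN7 were called higher in each of the 4 lines, as were 3.14% of all tested genes. No claudin was called lower in each of the 4 lines, as 2.46% of all tested genes were, and CLDN12 and CLDN15 passed the test in no line. These calls come from edgeR's quasi-likelihood test with Benjamini-Hochberg adjustment over all tested genes, as do all adjusted p-values below. Counts of whole cultures were measured, so fewer cells expressing a gene and less RNA per cell cannot be told apart.

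**Figure D1:**
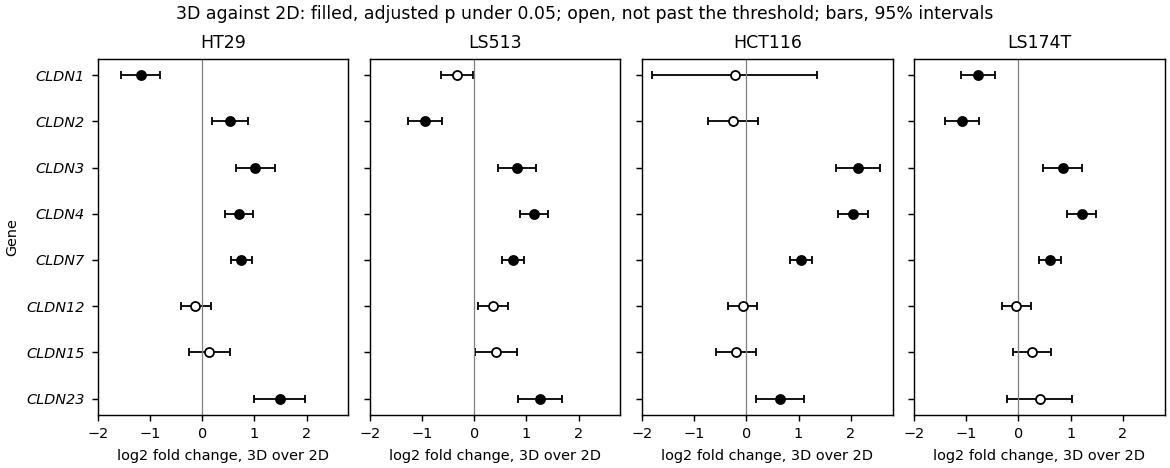
log2 fold change of each of the 8 tested claudin genes in 3D over 2D, by cell line, with 95% intervals from edgeR, and filled points for an adjusted p under 0.05. CLDN3, CLDN4 and CLDN7 lie to the right of 0 in every line, while CLDN2 lies to the right in HT29 at 0.53 and to the left in LS513 at -0.94 and in LS174T at -1.09.

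The sealing claudins CLDN3, CLDN4 and CLDN7 rose in 3D in all 4 lines. CLDN3 and CLDN4 are neighbours on chromosome 7 (CLDN3 at chr7:73768997-73770270 on the minus strand with a single exon, CLDN4 at chr7:73799542-73832693 on the plus strand, GRCh38, GENCODE 29), 29271 bases apart, and CLDN7 lies on chromosome 17 (chr17:7259903-7263983, minus strand). The sequence just before the annotated start of each is shown because these genes moved together, and that of CLDN2 because it did not move with them. Each run gives the 250 bases before a RefSeq start site, 5′ to 3′ on the strand of the gene (RefSeq, GRCh38.p14). CLDN3 is at chr7:73770271-73770520 on the minus strand, CLDN4 at chr7:73830746-73830995 on the plus strand, CLDN7 at the second of its annotated starts at chr17:7262479-7262728 on the minus strand, and CLDN2 at the first of its starts at chrX:106899914-106900163 on the plus strand. Capitals mark every match, on either strand, to GGGCGG (the GC box), CAGGTG (the E-box that Snail and ZEB factors bind), TTTAT (the core of CDX sites) or TATAAA (the TATA box). The letters CACCC (KLF core), CTTTG (TCF/LEF core) and AACCNGTT (Grainyhead-like) were also counted and are not marked.
CLDN3: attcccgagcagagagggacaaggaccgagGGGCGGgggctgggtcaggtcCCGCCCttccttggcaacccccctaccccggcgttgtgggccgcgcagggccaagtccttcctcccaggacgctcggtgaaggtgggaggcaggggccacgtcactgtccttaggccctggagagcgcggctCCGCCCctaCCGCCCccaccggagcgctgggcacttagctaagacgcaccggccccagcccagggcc
CLDN4: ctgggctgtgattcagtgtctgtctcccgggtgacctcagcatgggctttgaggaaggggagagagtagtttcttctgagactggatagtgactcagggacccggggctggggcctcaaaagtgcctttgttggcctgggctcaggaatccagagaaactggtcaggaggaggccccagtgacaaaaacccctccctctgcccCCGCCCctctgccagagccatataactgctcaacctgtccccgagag
CLDN7: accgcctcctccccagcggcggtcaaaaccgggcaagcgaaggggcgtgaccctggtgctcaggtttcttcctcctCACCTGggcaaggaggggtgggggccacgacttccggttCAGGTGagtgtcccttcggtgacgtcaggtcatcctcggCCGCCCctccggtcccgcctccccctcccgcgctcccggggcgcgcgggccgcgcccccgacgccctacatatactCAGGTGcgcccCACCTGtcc
CLDN2: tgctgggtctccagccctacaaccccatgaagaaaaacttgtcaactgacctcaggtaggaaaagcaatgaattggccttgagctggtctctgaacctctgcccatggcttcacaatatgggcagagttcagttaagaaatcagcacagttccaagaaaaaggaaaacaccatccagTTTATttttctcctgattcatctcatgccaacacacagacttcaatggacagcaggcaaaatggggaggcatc

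The CLDN3 window held 4 GC boxes, the CLDN4 window 1 and the CLDN7 window 1, while the CLDN2 window held none and carried 1 TTTAT. GC boxes were not limited to members that rose. Among windows not shown, that of CLDN1, which fell in 2 lines, held 2, and that of CLDN15, which passed in no line, held 1. The letters GGGCGG were present in 42.6% of 35116 RefSeq promoter windows of the same length, and 7.63% held 4 or more. The CLDN7 window held 4 CAGGTG matches, a letter run found in 17.5% of all windows and found 4 or more times in 0.122%. The other start of CLDN7 had no CAGGTG and no GGGCGG, and the TTTAT of CLDN2 was present in 32.7% of all windows. The other start of CLDN2 had neither GGGCGG nor TTTAT. Of the letters not marked, CACCC was present in 54.7% of all windows. The CLDN4 and CLDN7 windows shown held 1 each, those of CLDN3 and CLDN2 none, and the other starts of CLDN7 and CLDN2 held 5 and 3. CTTTG, in 42.1% of all windows, was found 2 times in the CLDN4 window and in no other window shown. No member window held AACCNGTT, which 1.49% of all windows did. None of the 4 windows shown held TATAAA, which 10.7% of all windows did. The limit of 4 matches was set after the claudin windows had been read, and a match describes letters and is not evidence of binding.

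CLDN4, a sealing claudin of the colon surface, was among the first 4 members by level per length in each group. In HT29 it stood at 519, 493 and 475 CPM in the 3 libraries of 2D cultures and at 846, 871 and 720 CPM in 3D. In LS513 the values were 496, 483 and 519 CPM in 2D and 1155, 1206 and 954 CPM in 3D. Every 3D library of both lines lay above every 2D library of the same line. HCT116 held 87.5, 92 and 119 CPM of CLDN4 in 2D and 439, 440 and 354 CPM in 3D, and LS174T held 243, 234 and 241 CPM in 2D and 537, 678 and 457 CPM in 3D. The groups did not overlap in these lines either, and the highest 3D value of LS174T was from the replicate that stood apart. The log2 fold changes of CLDN4 were 0.71 (SE 0.13, adjusted p = 1.8e-04, edgeR) in HT29, 1.15 (SE 0.13, adjusted p = 1.2e-06) in LS513, 2.04 (SE 0.14, adjusted p = 2.4e-10) in HCT116 and 1.22 (SE 0.13, adjusted p = 9.5e-07) in LS174T. Without replicate 2 of LS174T in 3D, the change in LS174T was 1.06 (adjusted p = 1.9e-06).

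CLDN3, whose protein is likewise a barrier-forming claudin, spanned a wider range of levels. HCT116 had the lowest values, at 3.9, 4 and 7.48 CPM in 2D and 26.4, 24.4 and 16.5 CPM in 3D. HT29 held 41.1, 45.1 and 52.9 CPM in 2D and 102, 81.3 and 98.8 CPM in 3D. In both lines the 3D libraries lay wholly above the 2D libraries. LS513 held 173, 180 and 212 CPM of CLDN3 in 2D and 362, 336 and 298 CPM in 3D, and LS174T held 74.9, 61.1 and 60.4 CPM in 2D and 115, 132 and 107 CPM in 3D, again without overlap. The log2 fold change was 2.14 (SE 0.20, adjusted p = 6.2e-08, edgeR) in HCT116, 1.02 (SE 0.18, adjusted p = 1.2e-04) in HT29, 0.82 (SE 0.18, adjusted p = 0.0016) in LS513 and 0.85 (SE 0.18, adjusted p = 0.0019) in LS174T. Leaving out replicate 2 of LS174T in 3D gave 0.77 for LS174T (adjusted p = 0.012).

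CLDN7, a claudin that binds EPCAM and is also found along the basolateral membrane, rose in all 4 lines. Its values in HT29 were 175, 178 and 164 CPM in 2D and 280, 288 and 304 CPM in 3D. Those in HCT116 were 133, 122 and 149 CPM in 2D and 284, 274 and 270 CPM in 3D. The smallest gap in CPM between the groups was in LS174T, where the 2D libraries held 277, 263 and 268 CPM and the 3D libraries 383, 484 and 365 CPM. LS513 held 427, 406 and 419 CPM in 2D and 729, 767 and 601 CPM in 3D, so that the groups were apart in all 4 lines. The log2 fold changes were 0.75 in HT29 (adjusted p = 4.4e-06, edgeR), 0.74 in LS513 (adjusted p = 8.7e-06), 1.04 in HCT116 (adjusted p = 7.8e-08) and 0.61 in LS174T (adjusted p = 1.6e-04), each with an SE of 0.10. The value for LS174T was 0.48 (adjusted p = 8.8e-04) without the replicate that stood apart. CLDN7 shares 10.8% of its exonic bases with AC003688.1 (ENSG00000262302), a gene annotated on the same strand, whose own level rose by 0.56, 0.62, 0.65 and 0.44 on the log2 scale in HT29, LS513, HCT116 and LS174T (adjusted p of 6.4e-05, 3.1e-05, 2.2e-05 and 0.002, edgeR). The part of this overlap in the CLDN7 counts was not tested. ELP5, which overlaps 1.52% of the exonic bases of CLDN7 on the other strand, passed the test in no line.

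**Figure D2:**
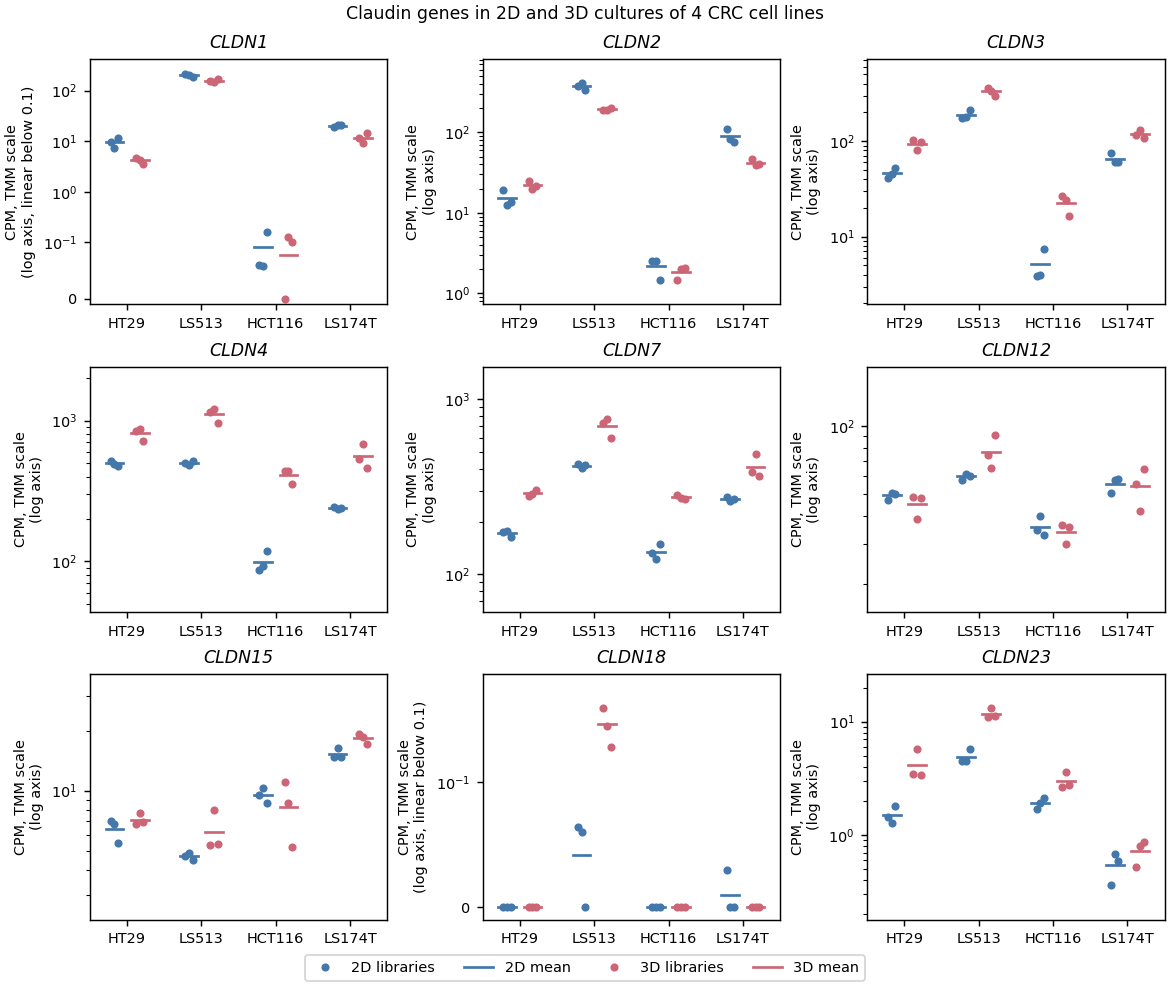
Normalised level of each of the 9 claudin genes in CPM (TMM scale, log axis, linear below 0.1 for CLDN1 and CLDN18), with 1 point per library and a line at the mean of 3 libraries of 2D (blue) or 3D (red) cultures. The 3D points of CLDN3, CLDN4 and CLDN7 lie above the 2D points in each line, CLDN1 of HCT116 lies between 0 and 0.16 CPM, and CLDN18 is above 0.1 CPM in LS513 grown in 3D alone.

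CLDN23, a claudin encoded by a single exon on chromosome 8 (chr8:8701938-8704106, plus strand) and known from differentiated surface epithelium, rose in 3 of the 4 lines from a low level. HT29 held 1.44, 1.27 and 1.81 CPM in 2D and 3.44, 5.71 and 3.37 CPM in 3D. LS513 held 4.47, 4.47 and 5.73 CPM in 2D and 11, 13.1 and 11.2 CPM in 3D. The groups did not overlap in either line, and the log2 fold changes were 1.49 (SE 0.24, adjusted p = 3.4e-05, edgeR) and 1.26 (SE 0.20, adjusted p = 8.6e-05). HCT116 held 1.69, 1.93 and 2.12 CPM in 2D and 2.63, 3.59 and 2.74 CPM in 3D, a log2 fold change of 0.64 (SE 0.23, adjusted p = 0.035). That call was lost when replicate 1 of HCT116 in 2D (adjusted p = 0.13), replicate 2 in 2D (adjusted p = 0.086) or replicate 2 in 3D (adjusted p = 0.18) was left out of the edgeR fit, with log2 fold changes of 0.56, 0.65 and 0.47. In LS174T the counts were 12, 24 and 20 in 2D and 17, 22 and 28 in 3D, the groups overlapped, and the log2 fold change of 0.41 (SE 0.30, adjusted p = 0.35) did not pass, nor did that of 0.34 (adjusted p = 0.58, edgeR) without the replicate that stood apart.

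CLDN2, which forms a channel for cations and water, went in different directions in different lines. In LS513, where it was most abundant, it stood at 376, 406 and 337 CPM in 2D and at 190, 192 and 202 CPM in 3D. LS174T held 109, 82.7 and 76.7 CPM in 2D and 46, 39.7 and 40.6 CPM in 3D. All 3D libraries of these lines were below the 2D libraries, and CLDN2 fell by 0.94 (SE 0.15, adjusted p = 9.3e-05, edgeR) in LS513 and by 1.09 (SE 0.16, adjusted p = 3.7e-05) in LS174T on the log2 scale. Without replicate 2 of LS174T in 3D the latter value was -1.04 (adjusted p = 3.9e-04). HT29 held 19.4, 12.6 and 13.5 CPM in 2D and 24.8, 19.6 and 21.4 CPM in 3D, where the lowest 3D library was just above the highest 2D library. The log2 fold change in HT29 was 0.53 (SE 0.16, adjusted p = 0.013). It did not pass without replicate 2 of HT29 in 2D (0.44, adjusted p = 0.071), without replicate 3 in 2D (0.48, adjusted p = 0.053) or without replicate 1 in 3D (0.46, adjusted p = 0.063, edgeR). HCT116 held 2.54, 2.5 and 1.48 CPM in 2D and 1.46, 1.99 and 2.04 CPM in 3D, with overlapping groups and a log2 fold change of -0.25 (SE 0.23, adjusted p = 0.44). CLDN2 lies on the X chromosome (chrX:106900164-106930861, plus strand) and shares 10% of its exonic bases with RIPPLY1 on the other strand, which had 0 to 17 counts per library.

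CLDN15, the other pore-forming member and a cation channel of the intestine, passed the test in no line. It stood at 5.48 to 7.03 CPM in HT29 in 2D and 6.76 to 7.71 CPM in 3D, and at 14.8 to 16.4 CPM in LS174T in 2D and 17.2 to 19.2 CPM in 3D. HCT116 held 8.66 to 10.3 CPM in 2D and 5.18 to 11 CPM in 3D. LS513 had 4.5 to 4.86 CPM in 2D and 5.32 to 7.96 CPM in 3D, a log2 fold change of 0.41 (adjusted p = 0.14, edgeR). The 3D libraries lay above the 2D libraries in LS513 and LS174T, and the groups overlapped in HT29 and HCT116. Without the replicate that stood apart, CLDN15 in LS174T had a log2 fold change of 0.26 (adjusted p = 0.46, edgeR).

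CLDN1, a sealing claudin that is essential for the barrier of the skin, fell in 2 lines. HT29 held 9.57, 7.36 and 11.8 CPM in 2D and 4.74, 4.22 and 3.59 CPM in 3D. LS174T held 19, 20.6 and 20.6 CPM in 2D and 11.7, 9.33 and 14.2 CPM in 3D. The 3D libraries were below the 2D libraries in both lines, and CLDN1 fell by 1.18 (SE 0.18, adjusted p = 2.3e-05, edgeR) in HT29 and by 0.77 (SE 0.16, adjusted p = 0.0017) in LS174T on the log2 scale. Leaving out the LS174T replicate that stood apart gave -0.63 (adjusted p = 0.0087). LS513 had by far the highest level, at 209, 201 and 185 CPM in 2D and 155, 149 and 168 CPM in 3D. These groups were also apart, but the log2 fold change of -0.33 (SE 0.15, adjusted p = 0.11) did not pass in the fit of all 24 libraries. It passed when the 6 LS513 libraries were fitted alone (-0.35, adjusted p = 0.0081) and when replicate 2 of LS174T in 3D was left out (-0.34, adjusted p = 0.044, edgeR). In HCT116 CLDN1 was close to the limit of detection, with 2, 2 and 5 counts in 2D and 0, 4 and 3 in 3D, where 3 counts correspond to 0.0875 to 0.16 CPM depending on the library. No direction is read from these counts, and such a limit covers counting error only, since the reads carried no molecular identifiers.

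CLDN12, an atypical claudin that lacks the C-terminal motif by which most claudins bind scaffold proteins, stayed between 30.1 and 91.2 CPM in all 24 libraries. Its log2 fold changes were 0.36 in LS513, -0.04 in LS174T, -0.07 in HCT116 and -0.13 in HT29, and the value for LS174T was 0.12 (adjusted p = 0.6, edgeR) without the replicate that stood apart. The value for LS513 was near the threshold (adjusted p = 0.058, edgeR), with 57.8, 61.2 and 60.3 CPM in 2D and 74.4, 64.8 and 91.2 CPM in 3D. Leaving out replicate 2 of LS513 in 3D (0.46, adjusted p = 0.035), or replicate 2 or 3 of LS174T in 3D (0.36 in both, adjusted p = 0.021 and 0.035), took it past the threshold. CLDN12 shares 5.15% of its exonic bases with GTPBP10 and 2.98% with CDK14 on the same strand, and neither gene passed the test in any line.

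CLDN18, known from stomach and lung, was found in LS513 with 2, 2 and 0 counts in 2D and 13, 9 and 6 counts in 3D. Every other library had 0 counts apart from 1 count in LS174T in 2D, which left the gene below the filter for testing. The 3D libraries of LS513 reached 0.208 to 0.458 CPM, all above its 2D libraries. CLDN18 has 2 annotated starts, for a lung and a stomach form, which counts per gene cannot separate.

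Averaged over the 4 lines, 6 of the 8 tested members passed, 4 higher and 2 lower, where 50.5% of all tested genes did, 26.6% higher and 23.9% lower. The mean log2 fold change was 1.28 for CLDN4 (adjusted p = 9.6e-13, edgeR), 1.21 for CLDN3 (adjusted p = 5.6e-10), 0.95 for CLDN23 (adjusted p = 9.2e-07) and 0.79 for CLDN7 (adjusted p = 2.5e-11). It was -0.44 for CLDN2 (adjusted p = 2.4e-04), although the lines went in different directions, and -0.63 for CLDN1 (adjusted p = 0.017). Without replicate 2 of LS174T in 3D the means were 1.25, 1.19, 0.94, 0.76, -0.42 and -0.59 in the same order, and all 6 still passed. The mean of CLDN1 includes the few counts of HCT116, and it was -0.48 (adjusted p = 0.16) without replicate 3 of HCT116 in 2D and -0.42 (adjusted p = 0.17) without technical replicate d of every library. CLDN12 and CLDN15 had means of 0.03 and 0.15 that did not pass, though CLDN15 did at 0.22 (adjusted p = 0.019) without replicate 3 of HCT116 in 3D.

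Whether the response to 3D differed among lines was tested by the interaction of line and growth condition. CLDN2, CLDN3 and CLDN4 passed, which is 3 of 8 members, where 17.1% of all tested genes passed. For CLDN2 (adjusted p = 4.6e-05, edgeR) the effect in HT29 exceeded that in LS513 by 1.47 (95% interval 1.00 to 1.93) and that in LS174T by 1.61 (1.15 to 2.08) on the log2 scale. LS513 and LS174T differed by 0.15 (-0.30 to 0.60), which did not pass. For CLDN4 (adjusted p = 1.3e-04) the effect in HCT116 was larger than in HT29, LS513 and LS174T, with differences of HT29 minus HCT116 of -1.33 (-1.72 to -0.95), LS513 minus HCT116 of -0.90 (-1.28 to -0.51) and HCT116 minus LS174T of 0.83 (0.44 to 1.21). The same held for CLDN3 (adjusted p = 0.0028), where the differences were -1.11 (-1.67 to -0.55), -1.32 (-1.87 to -0.76) and 1.29 (0.73 to 1.84). Each of these pairwise differences passed at an adjusted p between 3.3e-05 and 0.01, and the other pairs of lines did not pass for these genes. Over all tested genes, the difference passed for 12.1% between HT29 and LS513, 7.76% between HT29 and HCT116, 6.65% between HT29 and LS174T, 4.34% between LS513 and HCT116, 3.62% between LS513 and LS174T and 4.75% between HCT116 and LS174T. HCT116 also had the lowest levels of CLDN3 and CLDN4 in 2D.
The interaction did not pass for CLDN1 (adjusted p = 0.065), CLDN23 (0.088), CLDN7 (0.14), CLDN12 (0.21) or CLDN15 (0.36, edgeR), although the single difference of HT29 minus LS513 passed for CLDN1 at -0.84 (adjusted p = 0.018). Without replicate 2 of LS174T in 3D, CLDN1 (adjusted p = 0.032) and CLDN7 (0.019) passed as well, making 5 members. The share of all genes that passed the interaction in that fit was not counted. CLDN1 also passed without replicate 2 of HT29 in 2D (0.031), replicate 1 of HCT116 in 3D (0.04) or replicate 3 of LS174T in 3D (0.028), and CLDN23 passed without replicate 1 of LS174T in 2D (0.048).

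The levels of most members were ordered alike over the lines. Lines differed in many genes, with 60.6% (HT29 and LS513), 68.8% (HT29 and HCT116), 64.6% (HT29 and LS174T), 68.3% (LS513 and HCT116), 57.6% (LS513 and LS174T) and 68.3% (HCT116 and LS174T) of all tested genes passing in 2D, and 61.9%, 68.5%, 65.5%, 68.5%, 60.9% and 67.2% in 3D for the same pairs. CLDN1, CLDN2, CLDN3, CLDN7 and CLDN12 were highest in LS513, then LS174T, then HT29 and lowest in HCT116, in 2D and in 3D. For CLDN1 the LS513 mean in 2D was 198 ± 12.3 CPM (SD, n = 3), against 20.1 ± 0.924 in LS174T, 9.57 ± 2.21 in HT29 and 0.0928 ± 0.0586 in HCT116, and each step of this order passed (adjusted p between 6.4e-15 and 4.0e-06, edgeR). CLDN2 in 2D ran from 373 ± 34.7 CPM in LS513 to 2.17 ± 0.603 CPM in HCT116, a ratio of 172, and the ratio was 106 in 3D. For CLDN3 the ratio of LS513 to HCT116 was 36.7 in 2D and 14.8 in 3D, and for CLDN7 it was 3.11 in 2D and 2.53 in 3D. Neighbouring lines did not pass for CLDN3 of LS174T and HT29 in 3D (adjusted p = 0.11) or for CLDN7 of HT29 and HCT116 in 3D (adjusted p = 0.52). CLDN4 was ordered LS513, HT29, LS174T and HCT116, with LS513 and HT29 not distinguishable in 2D (adjusted p = 0.99). CLDN12 differed least between lines, with ratios of 1.67 in 2D and 2.25 in 3D, and 3 of its 6 neighbouring steps did not pass (adjusted p = 0.53 and 0.28 in 2D and 0.096 in 3D).
CLDN15 had another order, with LS174T highest, then HCT116, HT29 and LS513. Its 2D means were 15.3 ± 0.917, 9.47 ± 0.802, 6.44 ± 0.84 and 4.69 ± 0.183 CPM (SD, n = 3), whose steps passed (adjusted p = 0.0018, 0.013 and 0.044, edgeR), while in 3D the 2 lower steps did not (0.32 and 0.38). CLDN23 was highest in LS513 and lowest in LS174T, and HT29 and HCT116 did not differ in 2D (adjusted p = 0.2) or 3D (0.053).

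Levels of different genes were compared per length, as RPKM, here CPM on the TMM scale divided by the kilobases of annotated exon. Summed over the 9 members, the claudin level in HT29 was 228 ± 2.9 RPKM in 2D and 382 ± 10.7 in 3D (SD, n = 3). In LS513 it was 597 ± 8.29 and 895 ± 79.5, in HCT116 89.3 ± 9.57 and 226 ± 17.7, and in LS174T 256 ± 13.7 and 406 ± 57. The 3D sum was 1.5 to 2.53 times the 2D sum, and the 3D libraries lay above the 2D libraries in each line. An exact two-sided permutation test gave p = 0.1 for each line, the smallest that 3 against 3 libraries allow. The difference of 3D minus 2D in LS174T was 150 RPKM, and 119 RPKM without the replicate that stood apart.
CLDN4 made up the largest share of the sum in HT29, 46.1% ± 1.49 in 2D and 45.2% ± 3.61 in 3D (SD, n = 3), followed by CLDN7. CLDN7 came first in the other lines, with 60.4% ± 2.04 of the sum in HCT116 in 2D and 49.3% ± 3.04 in 3D, where CLDN4 went from 23.6% ± 1.73 to 38.6% ± 1.88. In LS513 in 2D CLDN2 took 18.3% ± 1.91 and CLDN4 17.8% ± 0.444. The order of these 2 genes was not the same in each library, as replicate 3 had CLDN2 at 16.3% and CLDN4 at 18.2%. In 3D CLDN2 took 6.42% ± 0.818, below CLDN4 at 26.2% ± 0.962. Shares and ranks between genes depend on the length used. For CLDN4 this was 4702 bases of annotated exon, against 4163 in its longest transcript.

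**Figure D3:**
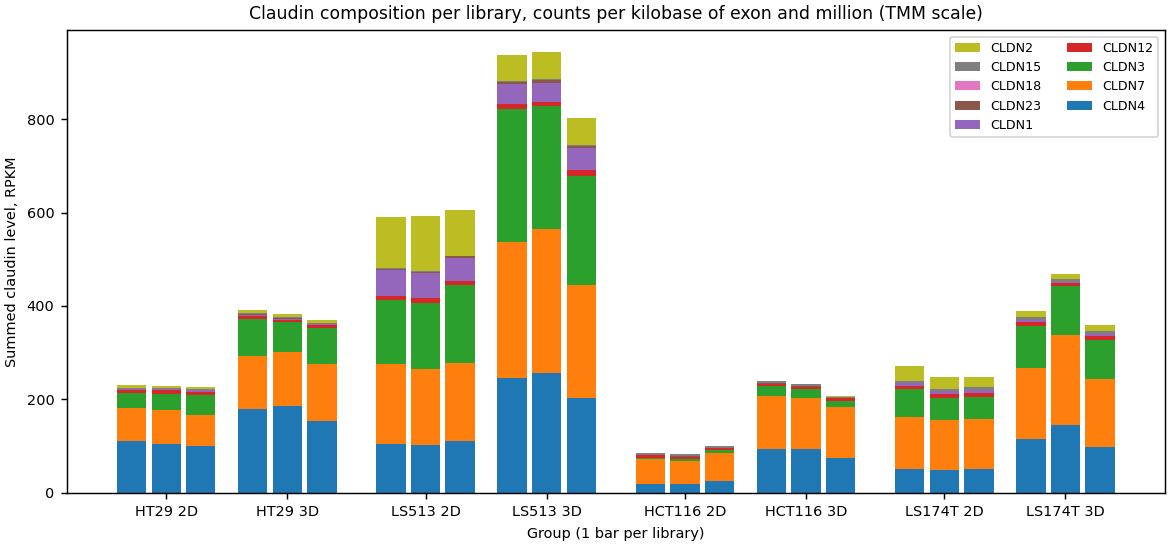
Claudin level per library as stacked RPKM values of the 9 genes, with 1 bar for each of the 24 libraries. The bars are taller in 3D in each line, the CLDN2 segment of LS513 is smaller in 3D than in 2D, and HCT116 in 2D has the lowest bars, between 82.6 and 100 RPKM.

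The pore-forming members CLDN2 and CLDN15 together took a smaller share of the summed RPKM in 3D than in 2D in each line. Their share was 18.9%, 20.4% and 16.5% in the 2D libraries of LS513 and 6.12%, 6.26% and 7.6% in 3D. In LS174T it was 13.6%, 12.1% and 11.1% in 2D and 5.16%, 3.85% and 4.97% in 3D. No 3D library of either line reached a 2D library. HCT116 held 4.73%, 5.18% and 3.42% in 2D and 1.77%, 1.54% and 1.16% in 3D, and HT29 held 3.51%, 2.66% and 2.6% in 2D and 2.45%, 2.2% and 2.34% in 3D. The exact permutation p was again 0.1 for each line, the smallest possible. The difference of 3D minus 2D in LS174T was -7.62 percentage points, and -7.21 without the replicate that stood apart. In HT29 the share was lower while the CLDN2 level was higher, as the sum of the other members was larger.

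Other claudins were scarce. Of the other 15 claudin genes only CLDN9, CLDN11 and CLDN16 had enough counts to be tested, CLDN8, CLDN17, CLDN24 and CLDN25 had 0 counts in every library, and CLDN9, the most abundant, had 5 to 140 counts. CLDN9 rose by 1.47 on the log2 scale in LS513 (SE 0.41, adjusted p = 0.011, edgeR), and no other test of these 3 genes in a single line passed.

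Of 34 genes for scaffolds, other strand proteins and polarity proteins of the tight junction, 31 were tested, and 8 were higher and 7 lower in HT29, 8 and 2 in LS513, 9 and 0 in HCT116 and 6 and 1 in LS174T. That is 48.4%, 32.3%, 29% and 22.6% of those tested, beside 40.7%, 23.6%, 29.1% and 22.2% of all tested genes. Without replicate 2 of LS174T in 3D, 2 were higher and 0 lower in LS174T, where 10.5% of all genes were called. Their median log2 fold changes were -0.02, 0.09, 0.07 and 0.04. TJP3, which encodes the scaffold ZO-3, passed in all 4 lines, with log2 fold changes of 0.78, 0.65, 1.51 and 0.63 in HT29, LS513, HCT116 and LS174T (adjusted p of 4.8e-04, 0.0038, 4.1e-07 and 0.0067, edgeR). CRB3, an apical polarity protein, also passed in all 4, with 0.66, 0.47, 0.98 and 0.48 (adjusted p of 0.002, 0.029, 8.4e-05 and 0.029). In LS174T both calls were lost without the replicate that stood apart, at 0.45 for TJP3 (adjusted p = 0.06, edgeR) and 0.26 for CRB3 (adjusted p = 0.24). OCLN (occludin) passed in HT29, LS513 and HCT116 with log2 fold changes of 0.41, 0.78 and 0.50 and had 0.06 in LS174T. TJP1, which encodes the main scaffold ZO-1, fell by 0.73 in HT29 (adjusted p = 0.0025) and did not pass in LS513 (0.25), HCT116 (0.07) or LS174T (-0.47, adjusted p = 0.061, edgeR).
Among the genes with the smallest p in a line, CGNL1, a junctional adaptor, rose by 2.40 in HT29 and had -1.83, -0.27 and -0.18 in LS513, HCT116 and LS174T, none past the threshold. RAB13, a GTPase of junction assembly, rose by 0.93 in HT29 and 0.65 in HCT116, passed in LS174T at 0.32 with that replicate only (0.26, adjusted p = 0.1, edgeR, without it) and did not pass in LS513 (0.25). LSR, a protein of tricellular junctions, rose by 0.57 in LS513, 0.62 in HCT116 and 0.45 in LS174T and did not pass in HT29 (0.20). PRKCZ, an atypical protein kinase C, rose by 0.51 in LS513, passed in LS174T at 0.35 with that replicate only (0.29, adjusted p = 0.093, without it), and did not pass in HT29 (0.23) or HCT116 (0.26).

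Of 10 genes for proteins that bind or modify claudins, all tested, 6 were higher and 1 lower in HT29, and 8, 5 and 4 were higher and none lower in LS513, HCT116 and LS174T. The called shares of 70%, 80%, 50% and 40% stand beside 40.7%, 23.6%, 29.1% and 22.2% of all tested genes. In LS174T, 3 of the 10 were called without the replicate that stood apart, where 10.5% of all genes were called. PRSS8, the membrane-anchored protease prostasin, rose in all 4 lines, by 0.91, 0.96, 1.28 and 0.65 on the log2 scale (adjusted p of 2.6e-06, 2.2e-06, 4.8e-08 and 4.6e-04, edgeR). EPCAM, the partner of CLDN7, rose by 0.55 in LS513 (adjusted p = 4.0e-05) and had -0.10, 0.02 and 0.08 in HT29, HCT116 and LS174T, none past the threshold. TSPAN8, a tetraspanin, rose by 1.16 in HT29 and 1.04 in LS174T, and had 0.13 in LS513 and -0.80 in HCT116, neither past the threshold. WNK4, a kinase that phosphorylates claudins, rose by 1.63 in HT29 and 1.72 in LS174T and did not pass in LS513 (0.12) or HCT116 (0.08).

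Of 24 transcription factors known to act on claudin or epithelial genes, 22 were tested, with 11 higher and 4 lower in HT29, 9 and 0 in LS513, 4 and 1 in HCT116 and 8 and 0 in LS174T. That is 68.2%, 40.9%, 22.7% and 36.4% of those tested, beside 40.7%, 23.6%, 29.1% and 22.2% of all tested genes. In LS174T, 6 were called, all higher, without replicate 2 in 3D, where 10.5% of all genes were called. KLF4, a factor of differentiating epithelium, rose in all 4 lines, by 1.24, 1.22, 1.46 and 1.14 on the log2 scale in HT29, LS513, HCT116 and LS174T (adjusted p of 2.1e-05, 1.2e-05, 9.8e-07 and 4.0e-05, edgeR). ELF3, an epithelial ETS factor, rose by 0.70, 0.82, 1.69 and 1.13 in the same order (adjusted p of 0.0087, 0.0051, 3.1e-06 and 5.5e-04). CDX2, the intestinal homeobox factor, rose by 2.25 in HT29, 0.60 in LS513 and 0.79 in LS174T, and had 0.17 in HCT116 (adjusted p = 0.31). GRHL3, a Grainyhead-like factor of barrier genes, rose by 1.36 in HT29, 0.81 in LS513 and 3.52 in HCT116, and did not pass in LS174T (0.14). KLF5, a factor of proliferating crypt cells, rose by 0.73 in LS513 and 0.37 in LS174T, and did not pass in HT29 (0.20) or HCT116 (0.25). Whether these factors act on the claudin genes in these cells was not tested.

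Adherens junction and desmosome genes, 16 in all and all tested, gave 1 higher and 3 lower in HT29, 7 and 2 in LS513, 8 and 1 in HCT116 and 3 and 2 in LS174T. That is 25%, 56.2%, 56.2% and 31.2% of the list, beside 40.7%, 23.6%, 29.1% and 22.2% of all tested genes. In LS174T, 2 were higher and 0 lower without replicate 2 in 3D, where 10.5% of all genes were called. NECTIN4, an adhesion molecule, rose in all 4 lines, by 1.32, 1.04, 3.02 and 0.42 on the log2 scale in HT29, LS513, HCT116 and LS174T (adjusted p of 7.8e-08, 2.3e-06, 1.7e-11 and 0.038, edgeR). JUP (plakoglobin) rose by 0.90 in LS513, 1.03 in HCT116 and 0.48 in LS174T and did not pass in HT29 (0.16). PKP3, a desmosomal plaque protein, rose by 0.55 in LS513 and 0.44 in HCT116, passed in LS174T at 0.38 with the replicate that stood apart only (0.24, adjusted p = 0.21, edgeR, without it), and did not pass in HT29 (0.11). CDH1 (E-cadherin) rose by 0.62 in LS513 (adjusted p = 0.0014) and 0.64 in HCT116 (adjusted p = 6.1e-04), and had 0.19 and 0.02 in HT29 and LS174T. NECTIN3, a relative of NECTIN4, fell by 0.88 in HT29 (adjusted p = 0.0016, edgeR) and by 0.73 in LS513 (adjusted p = 0.0074), and had -0.24 and -0.06 in HCT116 and LS174T, neither past the threshold.
Of 12 markers of colorectal epithelium, 8 were higher and 1 lower in HT29, and 8, 4 and 5 were higher and none lower in LS513, HCT116 and LS174T. The called shares were 75%, 66.7%, 33.3% and 41.7%, beside 40.7%, 23.6%, 29.1% and 22.2% of all tested genes. In LS174T, 5 were again called without replicate 2 in 3D, where 10.5% of all genes were called. The part of these markers in the claudin changes was not tested. KRT19, KRT20 and LGALS4 rose in all 4 lines, while KRT8 passed in none. KRT18 fell in HT29 (-0.41, adjusted p = 0.026, edgeR) and passed in no other line, and EPCAM rose in LS513 alone. Of the 11 markers of other cell types, 5 were tested, and 1 was higher in each line, CD14 in HT29 (1.04), VWF in LS513 (3.33) and HCT116 (1.28) and ACTA2 in LS174T (0.85, and 0.78 with an adjusted p of 0.067, edgeR, without the replicate that stood apart). That is 20% of those tested in each line, beside 40.7%, 23.6%, 29.1% and 22.2% of all tested genes. With 5 genes tested, such shares cannot be ranked against each other. The summed level of the 11 markers was 7.94 to 9.57 CPM in 2D and 12.7 to 19.3 CPM in 3D in HT29, 0.302 to 0.38 and 0.704 to 0.995 in LS513, 16.1 to 21.3 and 15.9 to 29.9 in HCT116, and 4.13 to 5.57 and 7.86 to 9.59 in LS174T.

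**Figure D4:**
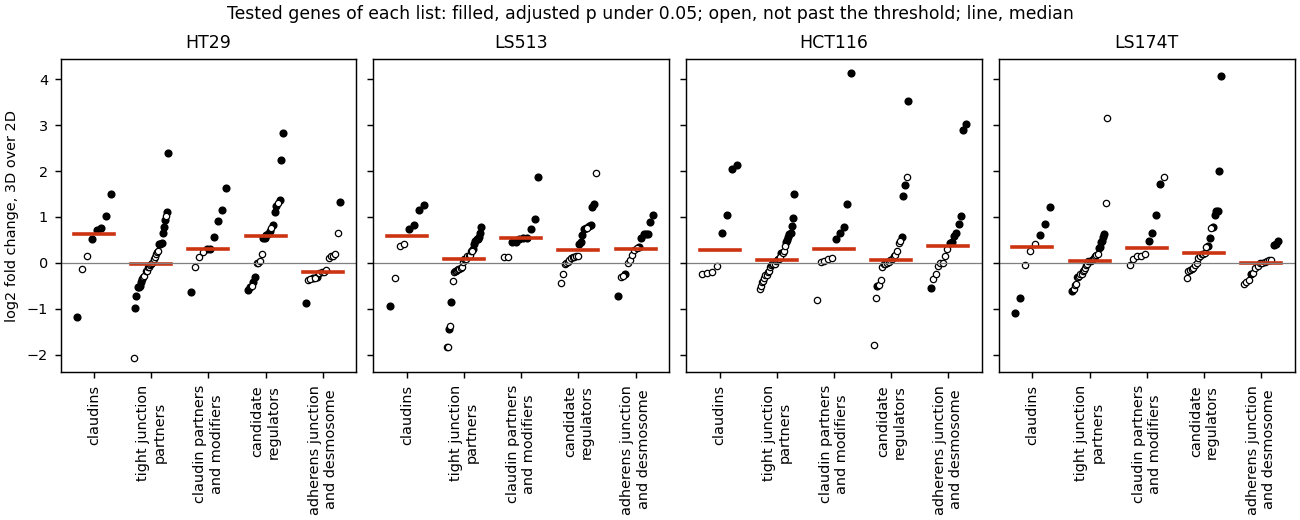
log2 fold change in 3D over 2D of every tested gene of the claudin set and of 4 lists of junction partners, claudin modifiers, candidate regulators and adherens or desmosome genes, by line, with filled points for an adjusted p under 0.05 (edgeR) and a red line at the median. The claudin median is above 0 in each line, from 0.29 in HCT116 to 0.62 in HT29, and the medians of the tight junction partners lie between -0.02 and 0.09.

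Over the 8 group means of log2 CPM, the members were also compared with each other and with all protein-coding genes, as a description of 4 lines that share most of their differences. The closest pair of members was CLDN1 and CLDN2 with a Pearson r of 0.98 (n = 8 group means), followed by CLDN1 and CLDN12 with 0.96, while CLDN3 and CLDN4, the neighbours on chromosome 7, had 0.85 and CLDN15 and CLDN23 had -0.79. The genes most like CLDN1 were EXOC1 (r = 0.995) and SYK (0.994), those most like CLDN2 ZNF514 (0.995) and MLEC (0.991), and those most like CLDN3 USH1C (0.991) and ACY1 (0.990). For CLDN4 they were ELMO3 (0.978) and POLD4 (0.975), and for CLDN7 AP1M2 (0.995) and LLGL2 (0.992), a polarity gene. CLDN12 was most like KYAT3 (0.987) and GFPT1 (0.979), CLDN15 like EMX1 (0.983) and CORT (0.978), and CLDN23 like HID1 (0.984) and ENSG00000273088 (0.983). These values follow mainly the differences between lines, since each line contributes 2 of the 8 means.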

How the data were processed

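Poly(A) RNA of 4 CRC cell lines grown in 2D and 3D was sequenced as stranded single reads. Unnormalised counts per gene were deposited for 191 of 192 technical replicates, which the authors made by trimming (Trim Galore 0.4.1), STAR alignment, removal of multiply aligned reads and HTSeq 0.5.3. The submitters' processing notes name hg19 and the study's methods an Ensembl annotation of GRCh38. Gene coordinates here are from GENCODE 29 (GRCh38) and not from the count tables.

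Technical replicates were summed to 24 libraries of 18723942 to 34277421 counts, so that 3 counts equal 0.0875 to 0.16 CPM. Genes were filtered with filterByExpr (minimum count 10), leaving 19387, and tested with edgeR 4.0.16 (R 4.3.3, limma 3.58.1), with TMM and a robust quasi-likelihood fit of 8 groups (16 residual degrees of freedom). P-values were adjusted by Benjamini-Hochberg over all tested genes, with a threshold of 0.05. On simulated counts of the HT29 comparison with 19387 genes, 93 of 100 genes with a log2 change of 1 and 71 of 100 with 0.75 were recovered. Only 200 genes were changed, against 7887 called in the HT29 data, and genes of low level were not among them. These rates are therefore not the power for each claudin. RPKM used the union of annotated exons. The 9 members and the gene lists were chosen with earlier results of these data known, and members were all reported. From each list, the 2 genes with the smallest p per line, any gene called the same way in all 4 lines, and EPCAM, OCLN, TJP1, CDX2 and CDH1 were named, except 1 gene that is not reported here. Alternatives were DESeq2 1.42.0, its size factors, no filter, a replicate block, each line alone, technical replicate d left out, other lengths or scaling for RPKM and leaving out each library.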

Additional observations from a re-analysis of the deposited data

Results flagged for a closer look

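The response to growth in 3D differed among the 4 lines for 3 of the 8 tested claudin genes by edgeR's test of the interaction. CLDN2 (adjusted p = 4.6e-05) was higher in 3D in HT29 and lower in LS513 and LS174T. CLDN4 (adjusted p = 1.3e-04) and CLDN3 (adjusted p = 0.0028) were higher in all 4 lines and rose most in HCT116, with log2 fold changes of 2.04 and 2.14.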

How the results depend on the processing

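Of 1423 values for single claudin genes under the alternatives, 1384 kept their direction and their side of the threshold. No alternative reversed a called gene. The log2 fold changes that changed sign were all uncalled. Leaving out single libraries gave -0.15 to 0.02 for CLDN12 in HT29 (0.02 without 3D replicate 3), -0.16 to 0.01 in HCT116 (0.01 without 2D replicate 2), -0.18 to 0.12 in LS174T (0.12 without 3D replicate 2) and -0.01 to 0.07 on average (-0.01 without replicate 3 of LS174T in 3D). It gave -0.47 to 0.03 for CLDN15 in HCT116 (0.03 without 3D replicate 3) and fitted values of -0.83 to 0.34 for CLDN1 in HCT116, on counts near the limit of detection (0.34 without 2D replicate 3, 0.32 without 3D replicate 1), which was 0.56 without technical replicate d. Members called ranged from 5 to 6 in HT29, 5 to 7 in LS513, 3 to 4 in HCT116, 5 to 7 on average and 3 to 5 for the interaction when single libraries were left out, and stayed at 5 in LS174T. The interaction called 5 members with DESeq2 and 5 with all genes of at least 1 count, where CLDN1 (adjusted p = 0.017 and 0.0086) and CLDN23 (0.043 and 0.044) were added. DESeq2 also called the interaction for more of all tested genes, 4303 in place of 3314. Calls over all genes for the interaction were not counted without the filter or without single libraries. CLDN12 in LS513 passed with DESeq2 (adjusted p = 0.037), its size factors (0.048), no filter (0.041) and the line alone (0.042). The 3D minus 2D sum of RPKM was 176 in HT29 and 161 in HCT116 with the longest transcript as length and 217 in LS513 without TMM, against 154, 136 and 298. Same-numbered 2D and 3D libraries did not deviate together (correlations of -0.146 to 0.094). The labels do not say whether the numbers pair them, and 3 libraries per group cannot settle it. A replicate block (7 residual degrees of freedom) ended the calls of CLDN2 in HT29 (0.44, adjusted p = 0.077) and of the CLDN3 interaction (0.059), changed no other claudin call, and lowered calls over all genes in HT29 from 7887 to 5415 and for the interaction from 3314 to 1698. LS174T alone gave 1648 calls over all genes in place of 4305, and the cause was not tested. Leaving out replicate 2 of LS174T in 3D gave 2083 calls there, 10.5% of the genes tested in that fit. It gave 2 of 31 tight junction genes in place of 7 and 2 of 16 adherens junction and desmosome genes in place of 5. This alternative for the lists was chosen after seeing the data. With no filter CLDN18 passed in LS513 (adjusted p = 0.009, edgeR) on 4 counts in 2D. Depth limits CLDN18 and, in HCT116, CLDN1.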
